A study of Homo sapiens with 34 samples.

Results

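The 4 libraries described here compared human pluripotent cells held for 24 h in posterior primitive streak medium (PPS) with cells held for 24 h in mid primitive streak medium (MPS), with 2 libraries of each. They were chosen from the 34 libraries of the series by their labels, and every gene that passed the count filter was tested, 17895 of 37951 listed. Both media were made in E6 and held BMP4 at 40 ng/ml, the WNT activator CHIR99021 at 6 µM and bFGF at 20 ng/ml. Activin A, at 30 ng/ml, was in MPS alone. The comparison therefore asks what RNA levels looked like when activin was left out of an otherwise equal medium. All cells were ESI017, a line of human embryonic stem cells with a wild-type genotype, so 1 line stands for all cells and the 2 libraries of a condition are repeats within it.

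Levels in other media were used as background only. The anterior primitive streak medium (APS) lacked BMP4 and held CHIR99021 at 4 µM, bFGF at 20 ng/ml and activin at 30 ng/ml. The endoderm medium DE(a) held CHIR99021 at 2 µM and activin at 100 ng/ml, and the control cells stayed in mTeSR PLUS, a medium that maintains pluripotency. The control libraries are labelled 48 h and all others named so far 24 h. At 48 h the series also held PPS and MPS cells that had spent the second day in a medium for definitive endoderm, called DE(b), for paraxial mesoderm, called PM, or for lateral mesoderm, called LM, with 2 libraries of each, 12 in all.

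The primitive streak is the region of the gastrulating embryo where epiblast cells leave the epithelium and become mesoderm and endoderm. Activin and the related ligand NODAL bind type I and type II activin receptors, which phosphorylate SMAD2 and SMAD3. These SMADs enter the nucleus with SMAD4 and act on DNA together with partners such as FOXH1. High activity of this pathway is known to favour anterior streak and endoderm, and BMP and WNT signals to favour the posterior streak. Among the well known targets of the pathway are its own ligand NODAL and its inhibitors LEFTY1, LEFTY2 and CER1.

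Levels are given as CPM, the estimated count of a gene as its share of the library total, scaled to a total of 1000000, and are compared only within a gene. The totals were 20249866 and 16611339 counts in PPS replicates 1 and 2 and 23045722 and 20380733 in MPS replicates 1 and 2, so 3 counts, the floor used for bounds, correspond to 0.13 to 0.181 CPM. Differences are log2 fold changes of PPS over MPS with their standard error (±) and a Benjamini-Hochberg adjusted p from edgeR's quasi-likelihood test over all 17895 genes, with a threshold of 0.05. The spread was estimated over all 34 libraries. Because the labels do not say that replicates came from separate experiments, these p-values measure only the spread between these libraries, and floors cover counting error only. In bulk RNA, fewer cells of a type and less RNA per cell cannot be told apart.

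The libraries of the 2 media were not far apart as wholes. Across genes, log2 levels correlated with r = 0.9688 between the PPS libraries and 0.982 between the MPS libraries, and with 0.9336 to 0.9679 between a PPS and an MPS library. PPS replicate 1 was about as close to MPS replicate 2 as to PPS replicate 2. Mitochondrial transcripts took 7.13 and 9.03% of counts in PPS and 4.58 and 6.19% in MPS, within the range of 3.55 to 9.28% over all 34 libraries, and ribosomal protein genes took 3.82 and 2.51% in PPS and 4.23 and 3.63% in MPS, of a range of 2.51 to 5.13% over the 34. PPS replicate 2 thus shared the lowest ribosomal protein share with 1 other library and had the second highest mitochondrial share. The part of these shares in the differences between the media was not tested. A library is named below by its medium and replicate number, as in PPS 1.

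Few of the tested genes were called. The test called 1098 genes, 6.14% of those tested, of which 499 (2.79%) were higher and 599 (3.35%) were lower in PPS than in MPS. The median log2 fold change of all tested genes was 0.00. Of the called genes, 331 were higher and 347 lower by at least 1 on the log2 scale, and 110 were higher and 146 lower by at least 2. For each of the 1098, both PPS libraries lay on one side of both MPS libraries, which also holds within each of the 2 tables in which the replicates were deposited, and 47.6% of all tested genes were apart in this way, 28.5% with both PPS libraries higher and 19.1% with both MPS libraries higher. The counts of called members of each gene list below are to be read against the 2.79% higher and 3.35% lower of all tested genes. The number of calls depended on single libraries. It was 306 without PPS 2 and 263 without MPS 1, and 1338 without PPS 1 and 782 without MPS 2.

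**Figure D1:**
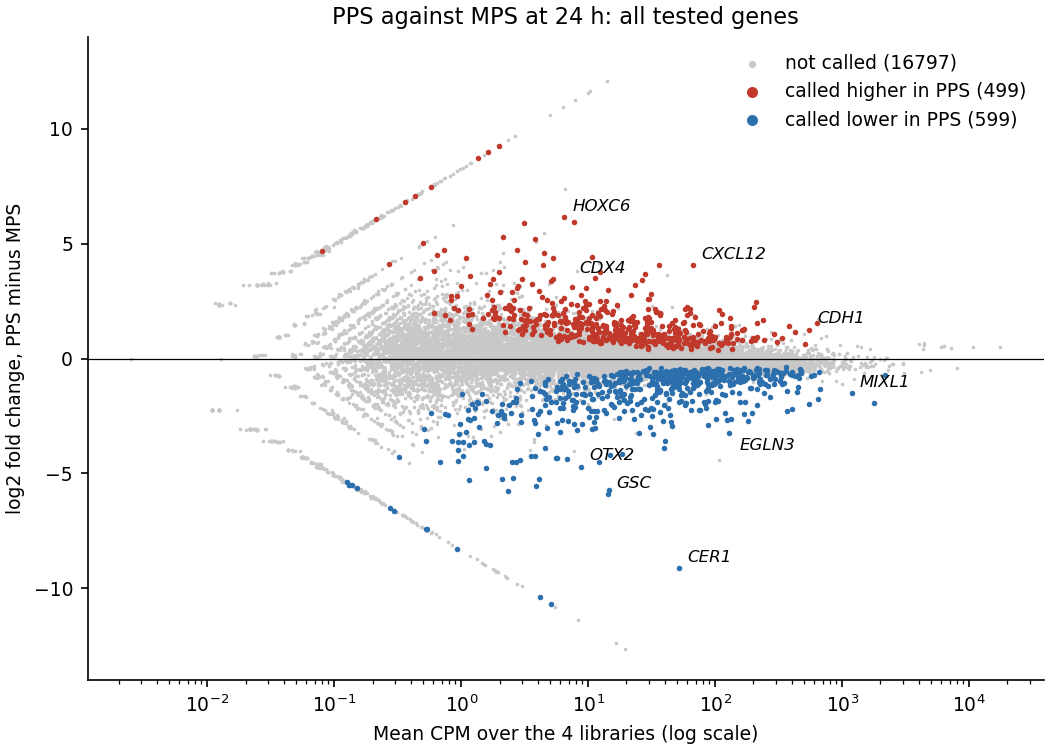
Log2 fold change of PPS over MPS at 24 h (vertical axis) against the mean CPM of the 4 libraries (horizontal log axis) for the 17895 tested genes, 1 point each, with 499 called higher in red, 599 called lower in blue and the rest in grey. Most points lie near 0, CER1 and GSC are far below it and HOXC6 and CXCL12 far above it.

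The largest falls among genes with at least 10 CPM in either medium included regulators of the anterior streak and of the head organizer. CER1, a secreted inhibitor of NODAL, BMP and WNT ligands, stood at 0.346 and 0 CPM in PPS and 156 and 49.4 CPM in MPS, a log2 fold change of -9.13 ± 0.95 (adjusted p = 8.42e-06). GSC, a homeobox factor of the organizer, stood at 0.395 and 0.602 CPM in PPS and 30.1 and 26.4 CPM in MPS, a log2 fold change of -5.90 ± 0.43 (adjusted p = 4.5e-08). OTX2, a homeobox factor of the anterior embryo, stood at 0.642 and 0.722 CPM in PPS and 19.6 and 14.2 CPM in MPS, a log2 fold change of -4.70 ± 0.67 (adjusted p = 0.00012). All 3 were nearly silent in both PPS libraries and well above the floor in both MPS libraries. In the control, GSC was at 0.0452 and 0 CPM, whereas OTX2 was at 56.4 and 50.0 CPM. Side by side, and with no comparison because their media differ in more than activin, the APS libraries held CER1 at 1160.0 and 569.5 CPM and the DE(a) libraries at 1795 and 1320.0 CPM.

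The other genes of this group had mixed roles. FOXC1, a forkhead factor of mesoderm, stood at 1.98 and 1.20 CPM in PPS and 40.2 and 16.3 CPM in MPS (log2 fold change -4.21 ± 0.39, adjusted p = 8.71e-07). CHL1, an adhesion molecule of the L1 family, stood at 1.00 and 1.20 CPM in PPS and 27.6 and 19.0 CPM in MPS (log2 fold change -4.49 ± 0.36, adjusted p = 9.06e-08). CAV1, the coat protein of caveolae, stood at 5.83 and 4.76 CPM in PPS and 99.5 and 48.1 CPM in MPS (log2 fold change -3.88 ± 0.75, adjusted p = 0.00267). MAMLD1, a mastermind-like nuclear protein, CALCR, the calcitonin receptor, and CHRNA1, a subunit of the muscle acetylcholine receptor, had log2 fold changes of -5.71 ± 0.60, -4.33 ± 0.57 and -4.15 ± 0.62. Besides these, KRT20 (-4.38 ± 0.82), whose identifier is not in the GENCODE release used, the processed pseudogene HNRNPA1P66 (-4.34 ± 0.81), whose reads may be split with HNRNPA1, and the locus AL139300.1 were in the group. AL139300.1 was at 0 CPM in both PPS libraries and at 7.45 and 12.8 CPM in MPS, at least 61.5-fold lower in PPS when each PPS library is set to 3 counts. It was also at 0 in 5 of the 34 libraries in all. CAV1 lost its call without PPS 2 (adjusted p = 0.0698), KRT20 without PPS 2 or MPS 2 (0.104 and 0.06) and HNRNPA1P66 without PPS 2 (0.0839). AL139300.1 lost its call without each library in turn (adjusted p = 0.0665 to 0.219). The other 8 of the 12 held their calls without each library in turn.

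For all 12 of these genes the mean in APS and in DE(a), the other media with activin, lay on the same side of PPS as MPS. The genes were picked for low levels in PPS relative to MPS, so this side was largely set by the choice. The share over all tested genes was not computed. The control mean was above the MPS mean for 2 of the 12.

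The 250 bases upstream of CER1 and OTX2 are shown because both genes were among the largest falls and both windows hold letters that fit the FOXH1 motif, AATNNACA, where N is any base. They are the RefSeq GRCh38.p14 bases read 5′ to 3′ on the minus strand, the gene's own strand, and the capitals mark matches to the motif on either strand. The windows are chr9:14722734-14722983 for CER1 and chr14:56810480-56810729 for OTX2.
CER1: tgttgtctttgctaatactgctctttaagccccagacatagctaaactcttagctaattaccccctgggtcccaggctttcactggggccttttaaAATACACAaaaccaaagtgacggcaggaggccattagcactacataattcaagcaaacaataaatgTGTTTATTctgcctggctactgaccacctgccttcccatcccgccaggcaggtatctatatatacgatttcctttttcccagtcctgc
OTX2: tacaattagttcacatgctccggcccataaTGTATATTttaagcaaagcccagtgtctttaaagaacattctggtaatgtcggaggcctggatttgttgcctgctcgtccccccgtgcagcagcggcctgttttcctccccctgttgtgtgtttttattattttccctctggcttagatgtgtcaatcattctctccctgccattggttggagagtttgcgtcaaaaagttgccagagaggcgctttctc
The first bases of the matches lie 154 and 88 bases before the start of CER1 and 220 before that of OTX2. The motif stood in 9.9% of all 27305 promoter windows of this length and in 5.26% of the 12272 windows found for tested genes. Among the largest changes with a window it stood in 2 of 10 falls and 1 of 9 rises. The rise was HOXC4, with 2 matches. The windows of GSC, NODAL and EOMES, also lower in PPS, held no match. The same windows of the 10 falls and 9 rises held none of 4 other motifs read on both strands, SMAD (GTCTAGAC), T-box (AGGTGTGA), TCF/LEF (ATCAAAG) and CDX (TTTATGG). These 4 stood in only 0.171, 0.644, 1.31 and 1.42% of the windows of tested genes, so this few windows cannot show a lack of them. The FOXH1 motif stood in 6.68% of the 449 windows found for genes called lower and in 6.81% of the 367 for genes called higher. These shares were not compared, because windows were found for under 80% of the symbols, 75.5% of those called lower, 73.5% of those called higher and 71.3% of those tested.

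**Figure D2:**
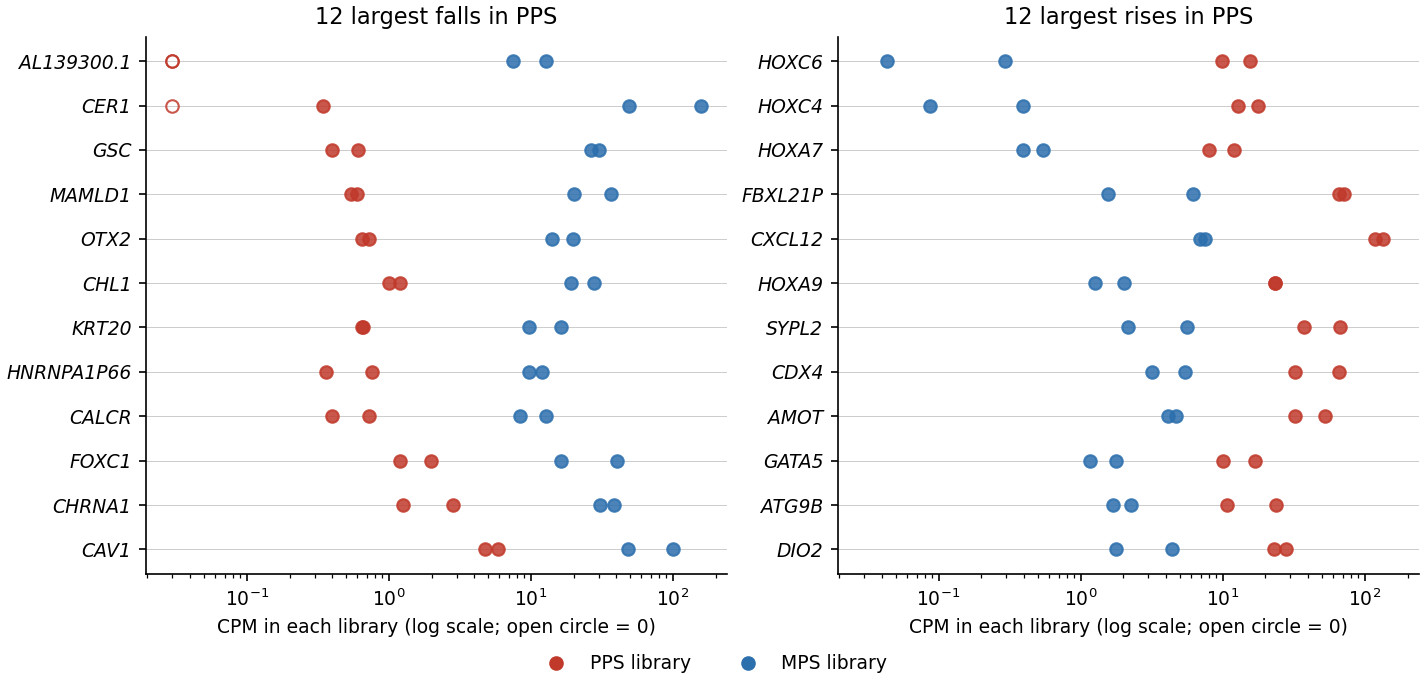
CPM (horizontal log axis) of the 12 largest falls (left) and 12 largest rises (right) in each PPS (red) and MPS (blue) library at 24 h, 1 circle a library, open where the gene was at 0. For each gene both PPS points lie on one side of both MPS points.

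Within the activin and NODAL pathway, called genes were lower in PPS in each role except for 1 latent TGF-beta binding protein. Of 9 ligand genes, 2 were called, both lower, and the median log2 fold change of the 9 was -1.0. NODAL stood at 24.7 and 45.9 CPM in PPS and 116 and 144 CPM in MPS, a log2 fold change of -1.96 ± 0.36 (adjusted p = 0.00158). Both PPS libraries thus lay below both MPS libraries and above the control, which held NODAL at 10.3 and 12.1 CPM. TGFB1, the ligand TGF-beta 1, stood at 56.7 and 48.9 CPM in PPS and 115 and 85.5 CPM in MPS (log2 fold change -1.0 ± 0.28, adjusted p = 0.0371). Of 10 receptors and co-receptors, 3 were lower and none higher, with a median of -0.29, or -0.11 with a gene at 0 in PPS set to its bound. TDGF1 (CRIPTO), the co-receptor that NODAL needs, stood at 99.3 and 75.1 CPM in PPS and 354 and 319 CPM in MPS (log2 fold change -2.02 ± 0.39, adjusted p = 0.00289). The activin type II receptor ACVR2A (-0.80 ± 0.22) and the co-receptor TGFBR3 (-1.11 ± 0.32) were lower by less. The type I receptor of activin, ACVR1B, stood at 30.4 and 35.1 CPM in PPS and 35.5 and 29.4 CPM in MPS and was not called (adjusted p = 0.883). Of 9 SMAD2/3 transducers and partners only SMAD3 was called, at 55.4 and 52.3 CPM in PPS and 82.1 and 74.7 CPM in MPS (log2 fold change -0.62 ± 0.18, adjusted p = 0.0399), and the median of the list was 0.00. FOXH1, the DNA-binding partner, stood at 174 and 238 CPM in PPS and 169 and 222 CPM in MPS (adjusted p = 1).

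Of 10 antagonists and feedback targets, 4 were lower and 1 higher, against 3.35 and 2.79% of all tested genes, with a median of -0.29. LEFTY1, a secreted inhibitor of NODAL, stood at 0 and 0.120 CPM in PPS and 2.14 and 2.31 CPM in MPS, from 2 counts in PPS and 96 in MPS, a ratio of 40.7 (exact 95% counting interval 11 to 341, adjusted p = 0.00014). Its neighbour LEFTY2, which shares much of its sequence so that reads could be split between them, stood at 0.296 and 0.361 CPM in PPS and 2.45 and 1.38 CPM in MPS (log2 fold change -2.61 ± 0.69, adjusted p = 0.0262). PMEPA1, a membrane protein that sequesters receptor SMADs, stood at 42.3 and 49.9 CPM in PPS and 94.3 and 101 CPM in MPS (log2 fold change -1.16 ± 0.20, adjusted p = 0.000836). For PMEPA1, unlike LEFTY1 and LEFTY2, PPS lay above the control, which stood at 25.9 and 27.4 CPM. The inhibitory SMAD7 stood at 88.0 and 106 CPM in PPS and 95.0 and 102 CPM in MPS and was not called (adjusted p = 0.826). LTBP1, which holds latent TGF-beta in the matrix, was the higher member (0.65 ± 0.16). TGFB1 lost its call without PPS 1, PPS 2 or MPS 1 (adjusted p = 0.0681 to 0.424), TDGF1 without PPS 2 (0.0803) and ACVR2A without PPS 2 or MPS 1 (0.523 and 0.507). TGFBR3 lost its call without PPS 1, PPS 2 or MPS 1 (adjusted p = 0.0582 to 0.461), SMAD3 without each library in turn (0.0784 to 0.354) and LEFTY2 without PPS 1, PPS 2 or MPS 1 (0.107 to 0.322). LTBP1 lost its call without PPS 2, MPS 1 or MPS 2 (adjusted p = 0.0519 to 0.216). The calls of NODAL, LEFTY1, PMEPA1 and CER1 held without each library in turn.

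**Figure D3:**
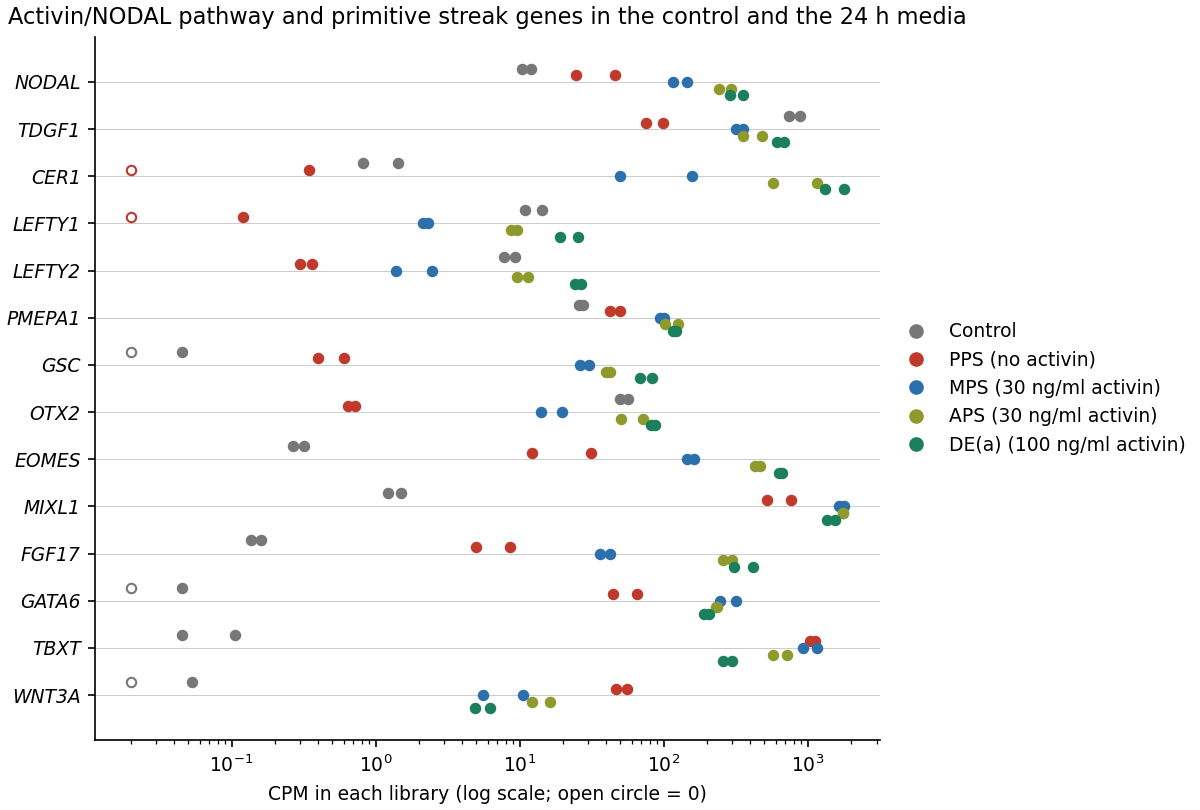
CPM (horizontal log axis) of activin pathway and primitive streak genes, 1 row a gene, in each library of the control, PPS, MPS, APS and DE(a), 1 circle a library, open where the gene was at 0. NODAL, TDGF1, EOMES, MIXL1 and GSC lie lower in PPS than in MPS, WNT3A lies higher, and the PPS and MPS libraries overlap for TBXT.

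The primitive streak genes divided. TBXT (brachyury), the T-box factor that marks the whole streak, stood at 1041 and 1125 CPM in PPS and 920.4 and 1152 CPM in MPS against 0.0452 and 0.106 CPM in the control, so this defining marker of the streak was present in both media. Its log2 fold change between them was -0.01 ± 0.39 (adjusted p = 1), and EVX1, a posterior homeobox gene, also was not called at 311 and 459 CPM in PPS and 306 and 380.1 CPM in MPS (adjusted p = 0.961). Of the 13 streak genes 5 were lower and 1 higher, with a median of -0.38. EOMES, the T-box factor needed for endoderm and cardiac mesoderm, stood at 12.2 and 31.0 CPM in PPS and 163 and 145 CPM in MPS (log2 fold change -2.91 ± 0.61, adjusted p = 0.00488). MIXL1, a homeobox factor of the streak, stood at 521 and 763 CPM in PPS and 1796 and 1658 CPM in MPS (log2 fold change -1.50 ± 0.41, adjusted p = 0.0273). FGF17 stood at 4.96 and 8.63 CPM in PPS and 36.0 and 42.1 CPM in MPS (log2 fold change -2.61 ± 0.69, adjusted p = 0.0238). For all 3, both PPS libraries lay below both MPS libraries and above both control libraries. The WNT ligands of the streak moved in opposite directions: WNT3, summed over its 3 identifiers, stood at 33.0 and 51.0 CPM in PPS and 121 and 111 CPM in MPS (log2 fold change -1.53 ± 0.26, adjusted p = 0.000756), and WNT3A at 46.8 and 55.2 CPM in PPS and 5.60 and 10.6 CPM in MPS (log2 fold change 2.59 ± 0.36, adjusted p = 0.000105). EOMES lost its call without PPS 1 (adjusted p = 0.057), MIXL1 without each library in turn (0.0665 to 0.183) and FGF17 without each library in turn (0.0756 to 0.121). GSC and WNT3A held their calls without each library in turn.

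Of 14 tested genes of the anterior streak, node and organizer, 5 were lower and 1 higher, with a median of -1.14, or -0.96 with a gene at 0 in PPS set to its bound. Beyond GSC, OTX2 and CER1 the lower members were LHX1, a LIM homeobox factor of the organizer, summed over 2 identifiers (-3.01 ± 0.51, adjusted p = 0.000756), and FRZB, a secreted WNT inhibitor (-2.42 ± 0.71, adjusted p = 0.0434). CHRD, a secreted BMP inhibitor made by the organizer, was the member that rose, at 11.8 and 15.5 CPM in PPS and 2.26 and 2.88 CPM in MPS (log2 fold change 2.33 ± 0.43, adjusted p = 0.00161). The list thus held calls in both directions. Of 16 tested definitive endoderm genes 3 were lower and none higher, and the median was 0.04. GATA6, a zinc finger factor of endoderm and cardiac mesoderm, stood at 65.1 and 44.8 CPM in PPS and 315 and 248 CPM in MPS (log2 fold change -2.43 ± 0.31, adjusted p = 3.31e-05), and its relative GATA4, summed over 2 identifiers, at 22.1 and 45.0 CPM in PPS and 118 and 119.9 CPM in MPS (log2 fold change -1.89 ± 0.33, adjusted p = 0.000807). The defining markers of endoderm were near the floor in both media, with SOX17 at 0.247 and 0.602 CPM in PPS and 0.260 and 0.147 CPM in MPS and FOXA2 at 0.0989 and 0.361 CPM in PPS and 0.304 and 0 CPM in MPS. FRZB lost its call without each library in turn (adjusted p = 0.081 to 0.339) and CHRD without MPS 1 (0.0561). The call of GATA6 held without each library in turn.

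The genes that rose most in PPS were led by HOX and CDX genes, the homeobox factors that give position along the trunk. HOXC6 stood at 15.5 and 9.85 CPM in PPS and 0.0434 and 0.294 CPM in MPS, a log2 fold change of 6.15 ± 0.83 (adjusted p = 0.00018). CDX4, an activator of HOX genes in the posterior embryo, stood at 65.5 and 32.2 CPM in PPS and 3.20 and 5.44 CPM in MPS, a log2 fold change of 3.43 ± 0.54 (adjusted p = 0.000401). HOXA9 stood at 23.3 and 23.3 CPM in PPS and 1.26 and 2.01 CPM in MPS, a log2 fold change of 3.76 ± 0.71 (adjusted p = 0.00467). These genes were at or near the floor in the control, with HOXC6 at 0 and 0 CPM. HOXC4 (5.93 ± 1.31) and HOXA7 (4.35 ± 1.04) were also among the 12 largest rises. GENCODE places an exon of HOXC6 over the start of HOXC4, so the reads of these overlapping models may be split between them.

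Of the 30 CDX and HOX genes of the list, all of them tested, 15 were higher and none lower, against 2.79 and 3.35% of all genes. Their median log2 fold change was 2.02, or 1.75 with the genes at or under 3 counts in MPS set to their bounds. In 28 of the 30 both PPS libraries were above both MPS libraries, including genes that did not pass the test, against 28.5% of all tested genes. Among the 27 HOX genes 14 were called, and the 4 clusters were all represented. The HOXA cluster on chromosome 7 had 5 of 8 called with a median of 2.42. The HOXB cluster on chromosome 17 had 2 of 9 called with a median of 0.96. The HOXC cluster on chromosome 12 had 4 of 5 and the HOXD cluster on chromosome 2 had 3 of 5, with medians of 6.15 and 4.52, or 4.84 and 3.16 with such bounds. By paralogue number, 1 of 8 genes of paralogues 1 to 3 was called with a median of 0.82, 6 of 9 of paralogues 4 to 6 with a median of 3.14, and 7 of 10 of paralogues 7 to 10 with a median of 4.05. Within the list, the medians were thus higher in the HOXC and HOXD clusters, also with bounds. The medians by paralogue number rose as fitted values. They were not computed with bounds, so the rise is not shown to hold with them. The list held no paralogue above 10. HOXA11, tested but not in the list, stood at 8.84 and 4.27 CPM in PPS and 1.69 and 2.01 CPM in MPS. It was not called (log2 fold change 1.75 ± 0.71, adjusted p = 0.171). The calls rested on all 4 libraries, since 9 of the 30 CDX and HOX genes were called without PPS 1, 7 without PPS 2, 4 without MPS 1 and 6 without MPS 2, with none lower in any case.

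Some of these genes were at 0 in MPS. HOXC8 stood at 2.87 and 2.54 CPM in PPS and at 0 in both MPS libraries, at least 19.5-fold higher in PPS with 3 counts in each MPS library (adjusted p = 0.00171), and HOXC5 at 5.54 and 2.43 CPM in PPS and again at 0 in both MPS libraries, at least 28.7-fold higher (adjusted p = 0.0321). HOXB genes were present in both media: HOXB6 stood at 223 and 169.7 CPM in PPS and 71.4 and 69.3 CPM in MPS (log2 fold change 1.41 ± 0.38, adjusted p = 0.0358) and HOXB8 at 54.6 and 50.2 CPM in PPS and 7.02 and 9.36 CPM in MPS (log2 fold change 2.60 ± 0.62, adjusted p = 0.0164). CDX1 and CDX2 were not called, at 142 and 205 CPM in PPS and 111 and 141 CPM in MPS for CDX1 (adjusted p = 0.525) and 362 and 410.5 CPM in PPS and 151 and 176 CPM in MPS for CDX2 (adjusted p = 0.0985). For CDX1 and CDX2, too, both PPS libraries lay above both MPS libraries, and CDX2 was called in 4 of 13 alternative fits. HOXC4 lost its call without MPS 1 or MPS 2 (adjusted p = 0.188 and 0.0604), HOXA7 without PPS 2, MPS 1 or MPS 2 (0.0514 to 0.208) and HOXA9 without MPS 1 (0.107). HOXC5 lost its call without each library in turn (adjusted p = 0.0673 to 0.237), HOXB6 without each library in turn (0.0936 to 0.231) and HOXB8 without PPS 2, MPS 1 or MPS 2 (0.0707 to 0.207). The calls of HOXC6, HOXC8 and CDX4 held without each library in turn.

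**Figure D4:**
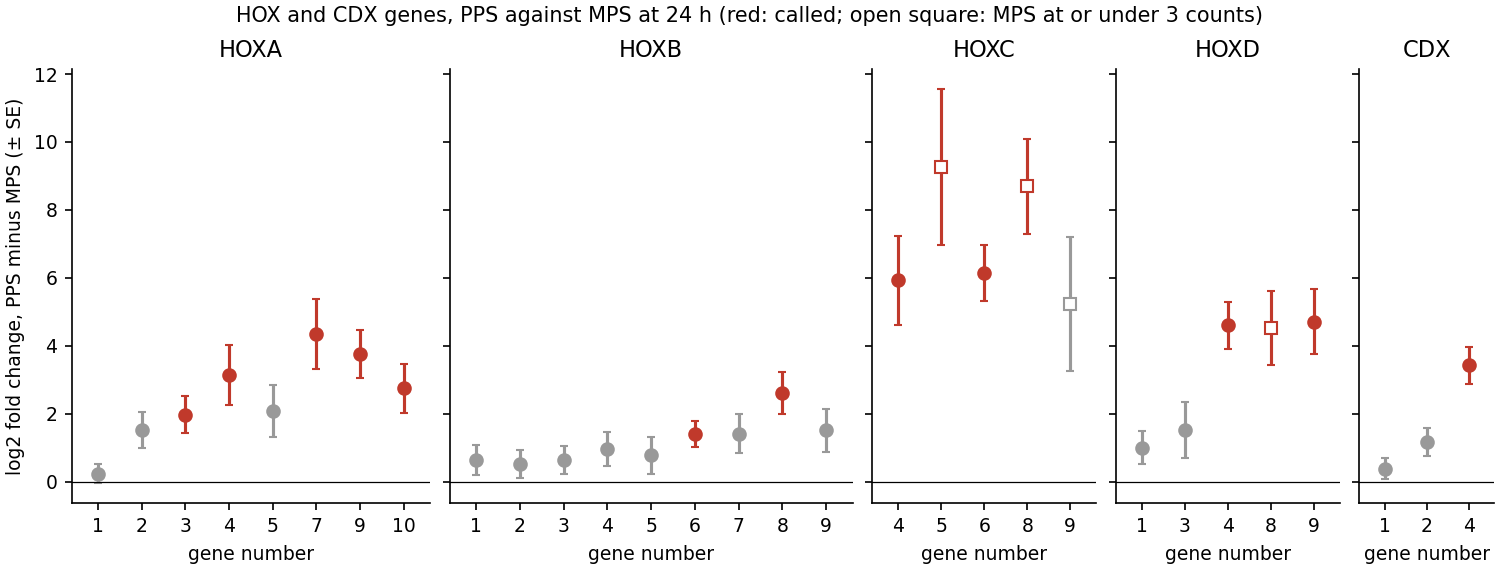
Log2 fold change of PPS over MPS at 24 h (vertical axis, bars are the SE of the fit) of the 30 listed HOX and CDX genes, by cluster and gene number. Red marks called genes, and open squares mark genes at or under 3 counts in MPS, whose fitted value is no bound. All points lie above 0, and the 15 called include 4 of the 5 HOXC genes.

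The largest rises outside the HOX and CDX genes had several roles. CXCL12, the chemokine ligand of CXCR4, stood at 135 and 119 CPM in PPS and 6.88 and 7.53 CPM in MPS, a log2 fold change of 4.06 ± 0.30 (adjusted p = 4.5e-08). AMOT, an angiomotin that binds YAP, stood at 52.4 and 32.3 CPM in PPS and 4.73 and 4.12 CPM in MPS (log2 fold change 3.18 ± 0.37, adjusted p = 1.19e-05). GATA5, a zinc finger factor of cardiac mesoderm and endoderm, stood at 9.97 and 16.8 CPM in PPS and 1.17 and 1.77 CPM in MPS (log2 fold change 3.11 ± 0.53, adjusted p = 0.000788). GATA5 thus went in the direction opposite to GATA4 and GATA6. DIO2, which activates thyroid hormone, ATG9B, an autophagy protein, SYPL2, a synaptophysin-like membrane protein, and the pseudogene FBXL21P had log2 fold changes of 2.99 ± 0.40, 3.05 ± 0.42, 3.68 ± 0.70 and 4.08 ± 0.73. For all 12 rises, HOX and CDX4 included, the APS and DE(a) means lay on the MPS side of PPS. Here, too, the side was largely set by picking genes with high levels in PPS relative to MPS. SYPL2 lost its call without MPS 1 (adjusted p = 0.0862) and FBXL21P without MPS 1 (0.0511). CXCL12, AMOT, GATA5, ATG9B and DIO2 held their calls without each library in turn.

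The called mesenchymal genes were lower and the called epithelial genes higher in PPS, in libraries that all expressed TBXT. Of 18 factors and effectors of the epithelial to mesenchymal transition 8 were lower (44.4%, against 3.35% of all tested genes) and none higher, with a median log2 fold change of -0.63. SNAI1 (Snail), a repressor of E-cadherin, stood at 64.9 and 40.3 CPM in PPS and 134 and 112 CPM in MPS (log2 fold change -1.30 ± 0.24, adjusted p = 0.00157). ZEB2, a repressor of the same kind, stood at 15.3 and 8.26 CPM in PPS and 61.9 and 38.8 CPM in MPS (log2 fold change -2.16 ± 0.40, adjusted p = 0.00161). VIM (vimentin), the intermediate filament of mesenchymal cells, stood at 383 and 232 CPM in PPS and 1251 and 694 CPM in MPS (log2 fold change -1.74 ± 0.33, adjusted p = 0.00203). ZEB1 (-1.87 ± 0.30) and the mesenchymal cadherin CDH11 (-1.67 ± 0.38) were lower as well. CDH2 (N-cadherin) stood at 433 and 358 CPM in PPS and 578 and 526 CPM in MPS, a smaller difference of -0.56 ± 0.15 (adjusted p = 0.0251). The 18 genes summed to 4648 and 3513 CPM in PPS, 7190 and 5381 in MPS and 1537 and 1525 in the control, so PPS lay between the control and MPS. The number called lower was 10 without PPS 1, 1 without PPS 2, 3 without MPS 1 and 7 without MPS 2. SNAI1 lost its call without PPS 2 (adjusted p = 0.0674), ZEB2 without PPS 2 (0.0655) and VIM without PPS 2 or MPS 1 (0.0803 and 0.0992). CDH11 lost its call without PPS 2 or MPS 1 (adjusted p = 0.208 and 0.209) and CDH2 without PPS 2, MPS 1 or MPS 2 (0.0531 to 0.353). Only ZEB1 of those named held its call without each library in turn.

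Of 27 genes of epithelial junctions and keratins 9 were higher (33.3%, against 2.79% of all tested genes) and none lower, with a median of 0.99. Both PPS libraries were above both MPS libraries for 22 of them, against 28.5% of all tested genes. CDH1 (E-cadherin) stood at 717 and 861 CPM in PPS and 264 and 362 CPM in MPS (log2 fold change 1.26 ± 0.26, adjusted p = 0.00455). CGN (cingulin), a tight junction scaffold, stood at 144 and 205 CPM in PPS and 31.3 and 45.0 CPM in MPS (log2 fold change 2.12 ± 0.21, adjusted p = 2.41e-06). CLDN4 and CLDN10, claudins of the tight junction, had log2 fold changes of 2.33 ± 0.38 and 2.17 ± 0.41. GRHL2, a transcription factor of epithelial junction genes, stood at 39.6 and 55.6 CPM in PPS and 10.8 and 19.2 CPM in MPS (log2 fold change 1.60 ± 0.39, adjusted p = 0.016). In the control CDH1 stood at 303 and 299 CPM, inside the range of the MPS libraries. The keratin KRT19 (1.14 ± 0.30), the protease ST14 (1.35 ± 0.34) and CDH3 (P-cadherin, 0.75 ± 0.19) were also among the 9. The number called higher was 8 without PPS 1, 3 without PPS 2, 2 without MPS 1 and 6 without MPS 2. CDH1 lost its call without PPS 2 or MPS 1 (adjusted p = 0.0707 and 0.129), CLDN10 without MPS 1 (0.0715) and GRHL2 without PPS 2 or MPS 1 (0.182 and 0.282). KRT19 lost its call without each library in turn (adjusted p = 0.0545 to 0.288) and ST14 without PPS 2, MPS 1 or MPS 2 (0.0688 to 0.283). CDH3 lost its call without PPS 2, MPS 1 or MPS 2 (adjusted p = 0.0827 to 0.308). CGN and CLDN4 held their calls without each library in turn.

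Matrix genes were called mostly in 1 direction. Of 32 collagens, laminins and other matrix genes 6 were lower (18.8%, against 3.35% of all tested genes) and 1 higher, with a median of -0.29. COL5A1, a fibrillar collagen chain, stood at 155 and 146 CPM in PPS and 753 and 565 CPM in MPS (log2 fold change -2.21 ± 0.19, adjusted p = 1.91e-07). LAMB1, the laminin beta 1 chain, stood at 140.0 and 124 CPM in PPS and 378 and 323 CPM in MPS (log2 fold change -1.49 ± 0.17, adjusted p = 1.19e-05), and LAMB2, the beta 2 chain, at 134 and 192 CPM in PPS and 74.6 and 85.2 CPM in MPS (log2 fold change 0.95 ± 0.21, adjusted p = 0.00855). The 2 laminin beta chains thus moved in opposite directions. Of 30 cadherins and protocadherins 6 were higher and 2 lower, with a median of 0.21. The higher members besides CDH1 and CDH3 were CDH7 (2.12 ± 0.62), PCDH9 (1.51 ± 0.44), PCDH17 (1.88 ± 0.48) and PCDH19 (0.95 ± 0.25), a protocadherin of somite forming tissue. LAMB2 lost its call without PPS 2 or MPS 1 (adjusted p = 0.205 and 0.138), CDH7 without PPS 1, PPS 2 or MPS 1 (0.0898 to 0.478) and PCDH9 without PPS 2, MPS 1 or MPS 2 (0.125 to 0.34). PCDH17 lost its call without PPS 2 or MPS 2 (adjusted p = 0.283 and 0.18) and PCDH19 without each library in turn (0.0631 to 0.257).

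BMP4 was in both media at the same dose. Of 17 BMP targets 2 were higher and 1 lower, with a median of 0.51. Both PPS libraries were higher for 11 of the 17, against 28.5% of all tested genes. Both MPS libraries were higher for 1, against 19.1%. SMAD9, a BMP receptor SMAD, stood at 23.3 and 22.0 CPM in PPS and 5.08 and 5.41 CPM in MPS (log2 fold change 2.04 ± 0.26, adjusted p = 3.13e-05). ID1, an inhibitor of bHLH factors and a common BMP readout, stood at 236 and 202 CPM in PPS and 129 and 134 CPM in MPS and was not called (adjusted p = 0.446). HAND1, a bHLH factor of lateral mesoderm, was the lower member, at 35.0 and 18.8 CPM in PPS and 164 and 79.6 CPM in MPS (log2 fold change -2.26 ± 0.50, adjusted p = 0.00784). Of 14 tested BMP ligands and extracellular modulators 2 were lower, the ligand BMP2 (40.0 and 91.6 CPM in PPS and 345 and 308 CPM in MPS, log2 fold change -2.39 ± 0.29) and the secreted inhibitor GREM1, summed over 2 identifiers (-3.66 ± 0.55), and CHRD was higher. Calls in both directions were thus found among targets and among ligands and modulators. HAND1 lost its call without PPS 2 or MPS 1 (adjusted p = 0.171 and 0.193) and CHRD without MPS 1 (0.0561).

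Among 20 amnion markers 3 were higher and 1 lower, with a median of 0.54, and the list summed to 1175 and 1063 CPM in PPS, 924 and 775 in MPS and 60.3 and 57.3 in the control. TFAP2A, an AP-2 factor of surface ectoderm and amnion, stood at 37.4 and 72.5 CPM in PPS and 4.43 and 10.5 CPM in MPS (log2 fold change 2.82 ± 0.42, adjusted p = 0.000237). TFAP2C, a related factor, stood at 19.8 and 14.7 CPM in PPS and 3.39 and 2.86 CPM in MPS (log2 fold change 2.39 ± 0.32, adjusted p = 6.79e-05). GATA2 stood at 53.5 and 59.9 CPM in PPS and 17.1 and 22.8 CPM in MPS (log2 fold change 1.43 ± 0.33, adjusted p = 0.0102). IGFBP3, a binding protein of insulin-like growth factors, was the lower member (-2.66 ± 0.40). Other markers of the list did not pass the test: GATA3 stood at 51.5 and 56.5 CPM in PPS and 34 and 36.0 CPM in MPS (adjusted p = 0.435) and ISL1 at 36.8 and 30.5 CPM in PPS and 17 and 16.9 CPM in MPS (adjusted p = 0.393). VTCN1 was near the floor and GABRP stood at 0.790 and 0.542 CPM in PPS and 2.35 and 3.46 CPM in MPS (adjusted p = 0.0534). The part of amnion-like cells in these differences was not tested. GATA2 lost its call without PPS 2 or MPS 1 (adjusted p = 0.0879 and 0.183).

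Other cell types left few calls. None of 5 tested trophoblast genes was called by edgeR or, among the 4 with 1 identifier, by DESeq2 or at an unadjusted p under 0.05, and CGB8, ELF5 and XAGE2 were at 0 in all 4 libraries. Of 10 tested primordial germ cell genes only TFAP2C was called, with NANOS3 at 0.840 and 1.50 CPM in PPS and 0 and 0.196 CPM in MPS. None of 8 tested neural ectoderm genes was called by edgeR or DESeq2 and 1 had an unadjusted p under 0.05, with a summed level of 8.48 and 21.6 CPM in PPS and 7.36 and 4.96 in MPS, most of it SOX3 at 5.45 and 18.5 CPM in PPS and 4.89 and 3.24 CPM in MPS (adjusted p = 0.355), and with PAX6 and SOX1 near or at 0. None of 10 tested blood and endothelial genes was called by edgeR, and of the 9 with 1 identifier none was called by DESeq2 and 2 had an unadjusted p under 0.05, with CDH5 and GATA1 at 0 in all 4 libraries and KDR, also a gene of early mesoderm, at 185 and 254 CPM in PPS and 194 and 234 CPM in MPS.

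Mesoderm genes were called in both directions. Of 14 genes of nascent and presomitic mesoderm 2 were higher and 2 lower, with a median of -0.10. HES7, a bHLH repressor of the segmentation clock, stood at 17.4 and 15.0 CPM in PPS and 2.97 and 2.40 CPM in MPS (log2 fold change 2.52 ± 0.38, adjusted p = 0.000237). APLNR, the apelin receptor of nascent mesoderm, stood at 175 and 86.3 CPM in PPS and 783 and 424 CPM in MPS (log2 fold change -2.28 ± 0.38, adjusted p = 0.000775). RSPO3, a secreted amplifier of WNT signals, stood at 14.6 and 5.00 CPM in PPS and 60.8 and 45.7 CPM in MPS (log2 fold change -2.51 ± 0.45, adjusted p = 0.00149). MSGN1 stood at 92.1 and 64.1 CPM in PPS and 52.5 and 60.4 CPM in MPS and was not called (adjusted p = 0.341). Of 16 lateral, cardiac and extra-embryonic mesoderm genes 4 were lower and 1, GATA5, higher, with a median of -0.36. Besides HAND1 and GATA4 the lower members were LIX1 (-1.86 ± 0.31) and TBX20, a cardiac T-box factor, at 0.0495 and 0.120 CPM in PPS and 4.90 and 4.18 CPM in MPS, a ratio of 56 from 3 counts in PPS and 198 in MPS (exact 95% counting interval 18.9 to 274, adjusted p = 0.00046). RSPO3 lost its call without PPS 2 (adjusted p = 0.0502) and HAND1 without PPS 2 or MPS 1 (0.171 and 0.193).

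Both media held bFGF at the same dose, and feedback inhibitors of FGF signalling were among the genes lower in PPS. Of 17 genes of the FGF and ERK response 6 were lower (35.3%, against 3.35% of all tested genes) and none higher, with a median of -0.38. The other 11, DUSP6, SPRY4, ETV4 and ETV5 among them, were not called. Both PPS libraries were higher for 3 of the 17, against 28.5% of all tested genes, and both MPS libraries for 9, against 19.1%. The list summed to 2616 and 2726 CPM in PPS and 2266 and 2317 CPM in MPS. DUSP5, a phosphatase of ERK, stood at 34.1 and 25.4 CPM in PPS and 93.2 and 67.3 CPM in MPS (log2 fold change -1.51 ± 0.27, adjusted p = 0.00156). SPRY1, a Sprouty inhibitor, stood at 4.35 and 1.81 CPM in PPS and 24.6 and 10.1 CPM in MPS (log2 fold change -2.56 ± 0.54, adjusted p = 0.00551). FLRT3, a membrane partner of FGF receptors, stood at 31.4 and 24.2 CPM in PPS and 122 and 126 CPM in MPS (log2 fold change -2.22 ± 0.25, adjusted p = 7.55e-06). SPRY2 (-1.09 ± 0.21), SPRED1 (-0.60 ± 0.18) and IER3, summed over 3 identifiers (-1.59 ± 0.25), made up the 6. Among 13 FGF ligands, FGF17 was lower and FGF11 (0.95 ± 0.21) higher. EGR1 and FOS, immediate early genes, differed by replicate number, with EGR1 at 121 and 509 CPM in PPS and 67.3 and 347 CPM in MPS, so that the 2 media overlapped. DUSP5 lost its call without PPS 2 or MPS 1 (adjusted p = 0.0599 and 0.0544), SPRY1 without PPS 2 or MPS 1 (0.143 and 0.181) and SPRY2 without MPS 1 (0.0807). SPRED1 lost its call without PPS 2, MPS 1 or MPS 2 (adjusted p = 0.0863 to 0.485), FGF11 without PPS 2, MPS 1 or MPS 2 (0.0543 to 0.113) and FGF17 without each library in turn (0.0756 to 0.121).

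CHIR99021, too, was in both media at the same dose. Of 19 WNT targets 2 were lower and none higher, with a median of 0.10. LGR5, the R-spondin receptor, stood at 23.5 and 35.4 CPM in PPS and 184 and 163 CPM in MPS (log2 fold change -2.64 ± 0.40, adjusted p = 0.000245), and FZD7, a Frizzled receptor, at 20.2 and 21.6 CPM in PPS and 75.2 and 57.5 CPM in MPS (log2 fold change -1.74 ± 0.26, adjusted p = 0.000246). AXIN2, the usual readout of the pathway, stood at 549 and 795 CPM in PPS and 402 and 519 CPM in MPS and was not called (adjusted p = 0.427). Among 14 tested WNT ligands only WNT3 and WNT3A were called. Of 17 pluripotency genes 4 were lower and none higher, with a median of -0.47. Both MPS libraries were higher for 11 of the 17, against 19.1% of all tested genes, and both PPS libraries for 3, against 28.5%. Among the 16 with 1 identifier DESeq2 called 8, and 10 had an unadjusted p under 0.05 in edgeR. ZIC2, a zinc finger factor of epiblast and streak, stood at 6.00 and 16.4 CPM in PPS and 81.3 and 80.5 CPM in MPS (log2 fold change -2.94 ± 0.42, adjusted p = 0.000125), and TDGF1 and ETV1 (-0.85 ± 0.25) were also among the 4. POU5F1, NANOG and SOX2 were not called: their log2 fold changes were 0.20 ± 0.18, -1.09 ± 0.47 and -0.47 ± 1.03. TDGF1 lost its call without PPS 2 (adjusted p = 0.0803) and ETV1 without each library in turn (0.115 to 0.237).

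Notch genes were called in 1 direction. Of 19 tested 4 were higher and none lower, with a median of 0.58. JAG1, a Notch ligand, stood at 132 and 119 CPM in PPS and 53.8 and 54.9 CPM in MPS (log2 fold change 1.13 ± 0.16, adjusted p = 0.00012), and the receptor NOTCH3 (1.27 ± 0.29), the feedback inhibitor NRARP (1.54 ± 0.43) and HES7 were the others. Of 18 genes of the retinoic acid pathway, CYP26A1, which degrades retinoic acid, stood at 0.198 and 0.241 CPM in PPS and 5.28 and 4.32 CPM in MPS (log2 fold change -4.51 ± 0.96, adjusted p = 0.00599) and ALDH1A2, which makes it, at 9.70 and 6.56 CPM in PPS and 50.8 and 21.7 CPM in MPS (log2 fold change -2.23 ± 0.46, adjusted p = 0.00471). These 2 enzymes were thus lower, and the receptor RARG (1.09 ± 0.13) and the retinol transporter STRA6 (1.18 ± 0.33) were higher. CYP26B1, a relative of CYP26A1 in the list, stood at 8.33 and 5.66 CPM in PPS and 3.65 and 2.51 CPM in MPS. It was not called (log2 fold change 1.11 ± 0.40, adjusted p = 0.113). Among 7 chemokine and apelin genes, CXCL12 and its scavenger receptor ACKR3 (1.71 ± 0.41) were higher and APLNR lower. Of 20 Eph receptors and ephrins, EFNA1 (1.14 ± 0.31) was higher and EFNA2 (-1.03 ± 0.27) and EPHA2 (-1.13 ± 0.29) lower. NOTCH3 lost its call without PPS 2 or MPS 1 (adjusted p = 0.414 and 0.225), NRARP without PPS 2 or MPS 1 (0.633 and 0.466) and CYP26A1 without PPS 2 or MPS 1 (0.0803 and 0.0551). ALDH1A2 lost its call without PPS 2 or MPS 1 (adjusted p = 0.106 and 0.179), STRA6 without each library in turn (0.0531 to 0.204) and ACKR3 without PPS 2 or MPS 1 (0.085 and 0.263). EFNA1 lost its call without each library in turn (adjusted p = 0.0853 to 0.293), EFNA2 without each library in turn (0.0517 to 0.228) and EPHA2 without each library in turn (0.0544 to 0.159).

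Of 101 genes of 4 general cell programs 5 were called (4.95%), near the 6.14% of all tested genes. Of these 5, 4 were in hypoxia and glycolysis, so the pooled share does not stand for each program. None of 22 cholesterol synthesis genes was called, with a median of -0.04 and log2 fold changes from -0.52 to 1.48, and of the 20 with 1 identifier DESeq2 called 1 and 2 had an unadjusted p under 0.05. None of 21 genes of p53, apoptosis and stress was called (median 0.07), where among the 19 with 1 identifier DESeq2 called 2 and 4 had an unadjusted p under 0.05, and of 31 cell cycle genes only CDK2 was (-0.53 ± 0.13, median of the list -0.02). Of 28 hypoxia and glycolysis genes 2 were lower and 2 higher (14.3% called in all), with a median of -0.36. Both MPS libraries were higher for 14 of the 28, against 19.1% of all tested genes, and both PPS libraries for 3, against 28.5%. Among the 27 with 1 identifier DESeq2 called 8 and 14 had an unadjusted p under 0.05. EGLN3, an oxygen-sensing prolyl hydroxylase, stood at 25.3 and 25.6 CPM in PPS and 258 and 202 CPM in MPS (log2 fold change -3.25 ± 0.33, adjusted p = 2.75e-06), the lowest value of its list. The others were HK1 (-0.51 ± 0.14), PFKM (0.56 ± 0.13) and ENO2 (1.48 ± 0.35), enzymes of glycolysis. CDK2 lost its call without PPS 2 or MPS 1 (adjusted p = 0.252 and 0.253), HK1 without each library in turn (0.0526 to 0.403) and PFKM without PPS 1 or MPS 1 (0.0762 and 0.11). ENO2 lost its call without PPS 2, MPS 1 or MPS 2 (adjusted p = 0.0545 to 0.178).

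**Figure D5:**
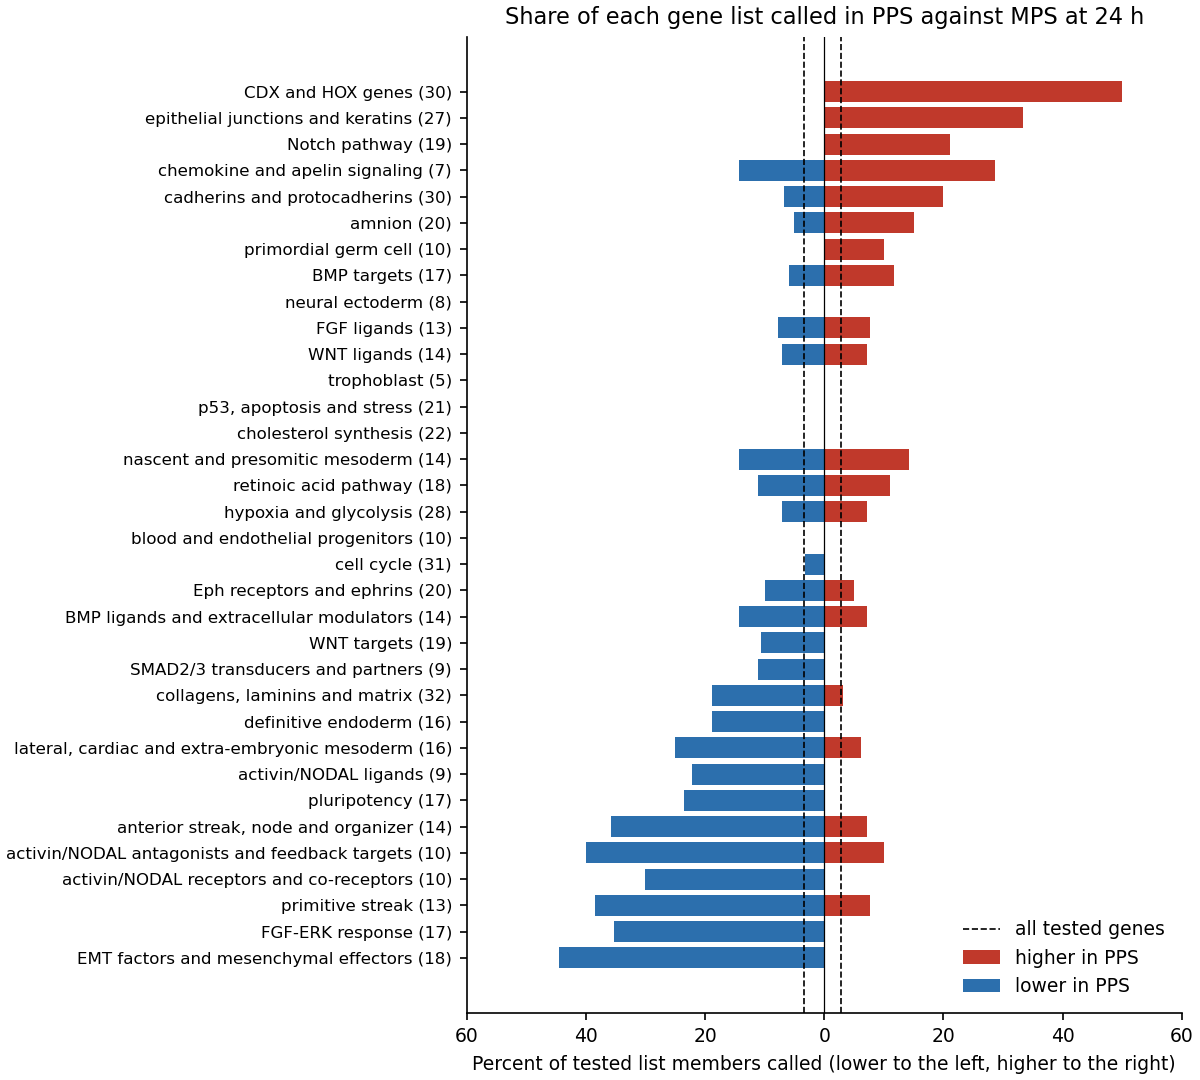
Percent of the tested members of each gene list (number tested in brackets) called higher in PPS (red, to the right) or lower (blue, to the left) at 24 h, with dashed lines at the share of all tested genes, 2.79% higher and 3.35% lower. CDX and HOX genes have 15 of 30 called higher, and mesenchymal genes 8 of 18 called lower.

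At 48 h the cells had left the streak media for 24 h, and the PPS and MPS cells of each pair then shared a day-2 medium. Per the study's methods, DE(b) held activin, whereas PM and LM held an inhibitor of activin signalling. The mean at 48 h thus pools cells given activin with cells in which its signal was inhibited. The PPS minus MPS difference at 24 h was set against the mean of the 3 differences at 48 h, in the same fit and with no library in common. The test of this difference called 682 genes, 3.81% of those tested, and 998 without PPS 1, 170 without PPS 2, 189 without MPS 1 and 525 without MPS 2. Of the 1098 genes called at 24 h 448 (40.8%) were among them: 144 had a smaller difference of the same direction at 48 h, 301 a fitted difference of the opposite direction and 3 a larger one. The 24 h values that picked these genes are also part of the difference tested. That choice favours both a call and a smaller or opposite value at 48 h, so these counts do not measure a change with time. The mean difference at 48 h was itself called for 1364 genes (7.62%), 886 higher and 478 lower in PPS-derived cells. Of these, 283 were called at 24 h too, which is 25.8% of the calls at 24 h and 20.7% of those at 48 h, and 231 of the 283 had the same direction.

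The lists differed in how they stood at 48 h, over members with 1 identifier. Of the 30 CDX and HOX genes 15 were called higher at 24 h and 21 at 48 h, with none lower at either time, and the median went from 2.02 to 2.50. The difference between the times was called for 1 of them. Of 24 epithelial genes 9 were called higher at 24 h and 18 at 48 h, where the mean rests on 12 libraries, and the difference between the times was called for 8, 6 of them lower and 2 higher at 24 h. Of 20 amnion markers 3 were called higher at 24 h and 12 at 48 h, and the difference was called for 3, all lower at 24 h. Of the 18 mesenchymal genes, by contrast, 8 were lower at 24 h, 2 were lower and 4 higher at 48 h, and the difference between the times was called for 8, all lower at 24 h. No activin or NODAL ligand or receptor gene was called at 48 h by edgeR, with 2 of 9 ligands and 2 of 10 receptors at an unadjusted p under 0.05, and 1 of the 10 antagonists and feedback targets was. The difference between the times was called for none of these ligands, receptors and antagonists, with 4, 2 and 3 of them at an unadjusted p under 0.05 and 2, 2 and 1 called by DESeq2, so these genes are not shown to differ between the times by the edgeR test.

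Values of single genes at both times are given as examples. GSC, CXCL12 and GATA5 were named for large differences at 24 h. That choice favours a call and a smaller or opposite value at 48 h. GSC had a log2 fold change of -5.90 ± 0.43 at 24 h and -1.93 ± 0.46 in the mean of 48 h, a difference of -3.98 ± 0.74 (adjusted p = 0.00312). CXCL12 had 4.06 ± 0.30 and 1.94 ± 0.17, a difference of 2.13 ± 0.32 (adjusted p = 0.000477). Both had the same direction at 48 h with a smaller fitted size, which the way they were chosen favours. SNAI1 had -1.30 ± 0.24 at 24 h and 0.69 ± 0.14 at 48 h, a difference of -1.99 ± 0.27 (adjusted p = 0.000212), and CDH1 had 1.26 ± 0.26 and 2.93 ± 0.16, a difference of -1.67 ± 0.30 (adjusted p = 0.00242). E-cadherin was thus further apart between the cells at 48 h than at 24 h. GATA5 had 3.11 ± 0.53 and -0.87 ± 0.46, a difference of 3.98 ± 0.71 (adjusted p = 0.00225).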

How the data were processed

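RNA was poly(A) selected, made into stranded libraries and sequenced as paired reads. Per the labels and the study's methods, the authors quantified reads with Salmon 1.10.2 (sequence and GC bias correction, GRCh38) and summed the estimated counts to genes in R 4.4.2, and the deposited tables, 1 for each replicate number, hold these estimated counts without normalization. They were rounded to whole numbers before testing. Genes were kept by filterByExpr by condition, libraries were scaled by TMM, and edgeR 4.0.16 (limma 3.58.1, R 4.3.3) fitted 1 mean per condition over 34 libraries and 17 conditions, without a replicate term, because 2 libraries a side leave few degrees of freedom (17 here, common dispersion 0.0611). The quasi-likelihood F-test was adjusted by Benjamini-Hochberg over all 17895 genes, with a threshold of 0.05. The script was tested on simulated data. CPM in the text are scaled by the library total, and fold changes by TMM.

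The members and the 35 gene lists were chosen with earlier results of these data known. Named were the 12 largest falls and rises among called genes with at least 10 CPM in PPS or MPS, 1 identifier and libraries apart, and called or study-stained members of the lists, and uncalled members shown beside them were picked for their role. Of 551 list symbols, 25 had more than 1 identifier and were summed and fitted as a sum; for these no fit without single libraries was made. Alternatives were other scaling, filter, tool, samples, a fold threshold, a replicate block and leaving out each library. Promoters are from RefSeq. Every count column was matched to a sample by its name. Some members of the lists that the rule named are not reported here.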

Additional observations from a re-analysis of the deposited data

Results flagged for a closer look

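The PPS minus MPS difference at 24 h differed from the mean of the 3 differences at 48 h for 682 genes by the edgeR interaction test, and for 17 of the 48 named genes looked at in this way. Genes named for a large difference at 24 h were among those looked at, and that choice favours a call. The results are given as values, on the log2 scale, as the difference at 24 h minus that at 48 h. Among genes that fell at 24 h the values were -3.98 for GSC, -3.95 for CHL1, -3.22 for CALCR, -4.92 for FOXC1, -3.37 for CAV1 and -2.0 for GATA6. HNRNPA1P66 (-6.61) and AL139300.1 (-11.19) rest on few or no counts in some libraries, so their size is not a measured fold. Among genes that rose at 24 h the values were 2.13 for CXCL12, 1.74 for AMOT, 3.98 for GATA5 and 2.49 for ATG9B.

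The genes stained or plotted in the study also appeared: TBX6 (-1.22), CDH1 (-1.67), CDH2 (-0.68), CDH3 (-0.89) and SNAI1 (-1.99). For TBX6 the log2 fold change was -0.23 ± 0.24 at 24 h and 0.99 ± 0.15 at 48 h, and for CDH3 it was 0.75 ± 0.19 and 1.63 ± 0.12. For CDH2 it was -0.56 ± 0.15 and 0.12 ± 0.09, and for FOXC1 -4.21 ± 0.39 and 0.71 ± 0.29. The cells differ between the times in age and in medium, which cannot be told apart.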

How the results depend on the processing

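Of the 1098 called genes 1 changed sign, FKBPL, named after its values were seen, whose called identifier had a log2 fold change of 8.98 (adjusted p = 0.0217) and whose identifiers summed per symbol had -0.27 (adjusted p = 0.648). The number of calls varied between settings. Against 1098 genes (499 higher, 599 lower) and 682 for the difference from 48 h, no filter on low counts gave 1876 (922, 954) and 1356, DESeq2 1669 (821, 848) and 1196, only the 4 libraries compared 296 (135, 161) and 505 for the difference fitted over the PPS and MPS libraries, only the 24 h and control libraries 687 (298, 389), and a test against a fold of at least 2 gave 116 (37, 79) and 53. RLE size factors gave 1115 (539, 576) and 695, and identifiers summed per symbol, chosen after seeing the data, 1216 (592, 624) and 759. Leaving out 1 library gave 263 to 1338 calls, 95 to 627 higher and 168 to 711 lower, and 170 to 998 for the difference. The cause of these shifts was not tested. Of the 1098 genes 1091 were called by DESeq2, 1075 with RLE factors, 931 without the filter, 568 with the 24 h and control libraries and 255 with only the libraries compared. The share of calls that were lower was 54.6%, and 68.1% against a fold of at least 2 and 63.9% without MPS 1. Of 97 called named genes 41 held their call without each library in turn, and 31 in every alternative. Of 11 uncalled named genes 6 were called in some alternative, CDX2 in 4, PCDH1 in 5, NANOG and ISL1 in 3 each, NKX2-5 in 2 and GATA3 in 1 of 13.

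The labels do not say that a replicate number marks a shared batch. With the replicate number as a block, 1717 genes were called (783 higher, 934 lower), among them all 1098, and 1122 for the difference, and no called named gene was lost. In the block fit of only the 4 libraries, chosen after seeing the data, 2488 were called (1209, 1279). The deviations of same-numbered PPS and MPS libraries from their means correlated at 0.337, with -0.035 to 0.424 over pairs of 24 h conditions. Over all 136 pairs of conditions the correlation ran from -0.2 to 0.569 and was over 0.1 for 96. The fits without single libraries had no replicate block. The study calls the 2 libraries of a condition biological replicates.

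With 2 libraries a condition and 1 cell line, a gene that missed the threshold is not shown to be equal. Mitochondrial and ribosomal protein shares differed between the media as given above.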
